A study of Rattus norvegicus with 12 samples.

Results

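Spry1, Spry2, Spry4, Spred1, Spred2, Dusp4, Dusp5, Dusp6 and Errfi1 are inhibitors of the RAS-ERK cascade, a relay of kinases that carries growth factor signals to the nucleus. ERK signaling raises the transcription of several of them, so that the cascade restrains itself. In fibroblasts of the joint lining this cascade is known for its part in growth and in the making of inflammatory mediators and matrix-degrading enzymes. The 9 genes were taken by gene name from 22442 gene records, and where several records carried a name the one with the highest mean expression was used. The question put to them, whether Spry4 stands alone among feedback genes at the highest dose, was chosen by the measured FPKM of Spry4 in those libraries and in the control, so that comparison is described without a test.

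The data were poly(A) RNA-seq libraries of rat fibroblast-like synoviocytes (FLS), grown from the synovium of male Sprague Dawley rats in which complete Freund's adjuvant had raised adjuvant arthritis, and used after 3 passages. FCA cells were kept in DMEM alone. AT10, AT1 and AT01 cells received taurochenodeoxycholic acid (TCDCA), a taurine-conjugated bile acid, at 10, 1 and 0.1 µM for 12 h, and each of the 4 groups had 3 libraries. All 4 groups were therefore arthritic cells, with no cells of healthy rats among them, and the age of the animals was not given in the sources used here. The study calls the replicate numbers sets of a repeated experiment but does not say whether these were separate animals, cultures or days, so p-values measure only the spread between these libraries, which may be technical.

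Expression was given as FPKM, a fragment count scaled to transcript length and to the mapped fragments of the library, without read counts per gene. The study states a read total and a GC content for each library. The read totals were not used here, and no counting interval could be given for a single value. The libraries summed to between 284210 and 309696 FPKM, and between 11471 and 11679 records reached 1 FPKM in each. A mean over the libraries of 1 FPKM or more was reached by 11611 records, all 9 genes among them, and these records were tested. Of 8 fibroblast markers 7 were found by name, with a summed level of 2900 to 4430 FPKM (Vim 1941.6 to 3083.65, Prg4 26.78 to 37.49), against 5.75 to 22 FPKM for 6 macrophage and leukocyte markers, of which Cd14 made up 3.6 to 18.82 and Cd3e was listed at 0 in every library. The 4 endothelial markers found summed to 0.07 to 0.21 FPKM.

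The promoters of Spry4 and Dusp5 are shown because, of the few motifs counted in the members, theirs held a motif more than once. The members were not searched alike for other repeats. Sequences are from RefSeq on the GRCr8 build, which is not stated to be the build of the expression values, and cover the 250 bases before the annotated start, read 5' to 3' on the strand of the gene. Of the 9 genes 8 matched a promoter there, with 9 promoters in all. Capitals mark CCATTCAT in Spry4 (chr18:30702547-30702796, minus strand) and the CArG box, the element that binds serum response factor, in Dusp5 (chr1:262543524-262543773, plus strand).
Spry4: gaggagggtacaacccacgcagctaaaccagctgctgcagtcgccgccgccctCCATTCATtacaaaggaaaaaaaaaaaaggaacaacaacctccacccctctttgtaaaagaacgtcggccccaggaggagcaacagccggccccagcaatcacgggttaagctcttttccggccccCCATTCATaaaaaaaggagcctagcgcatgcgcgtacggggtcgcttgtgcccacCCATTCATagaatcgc
Dusp5: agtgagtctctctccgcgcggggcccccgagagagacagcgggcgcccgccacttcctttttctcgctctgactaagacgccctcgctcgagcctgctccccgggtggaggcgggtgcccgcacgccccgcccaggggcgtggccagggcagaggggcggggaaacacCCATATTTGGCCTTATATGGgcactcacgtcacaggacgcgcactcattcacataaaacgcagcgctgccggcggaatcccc
The 3 copies of CCATTCAT began 197, 71 and 16 bases before the start of Spry4. At least 1 copy stood on either strand in 0.837% of the 33469 promoters and at least 2 in 0.012%, and this motif was picked after its sequence had been read. The 2 CArG boxes of Dusp5 began 82 and 72 bases before its start and lay side by side, where 1.5% of promoters held at least 1 and 0.0209% at least 2. The AP-1 motif TGACTCA (4.05% of promoters) and the CRE motif TGACGTCA (1.59%) were in none of the 9 promoters, and GGGCGGGG (14.2%) was in 3, those of Dusp5, Spred1 and Spry2. These matches describe letters in a window and are not evidence of binding.

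Spry4 had the largest ratio of highest to lowest value among the 9 genes, 38.3, although Spry2 and Errfi1 ranged over more FPKM. The Sprouty proteins are ERK-induced inhibitors that act on receptor tyrosine kinase signaling upstream of or at RAF. In FCA the level of Spry4 was 8.74, 8.80 and 8.51 FPKM. In AT10 it was 0.40, 0.26 and 0.23 FPKM. All 3 AT10 libraries lay far below all 3 FCA libraries, with means of 0.297 ± 0.0907 and 8.68 ± 0.153 FPKM (SD, n = 3), a difference of -2.90 on the log2(FPKM + 1) scale. On the log2(FPKM + 0.1) scale it was -4.49, since a pseudocount of 1 understates the change of a gene this low. In AT1 the values were 0.31, 8.70 and 7.98 FPKM. In AT01 they were 8.29, 8.63 and 0.34 FPKM. Each of these groups therefore held 1 library at the level of AT10 and 2 at the level of FCA.

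Across the 12 libraries Spry4 thus stood at separate levels, with no library in between. The group means were 8.68 FPKM in FCA, 5.75 in AT01, 5.66 in AT1 and 0.297 in AT10. They followed the number of low libraries in each group, and a trend with dose was not tested. It was between 0.23 and 0.40 FPKM in 5 libraries and between 7.98 and 8.80 FPKM in 7, and the lowest of the upper values was 19.9 times the highest of the lower ones. The differences of AT1 and AT01 from FCA, -1.0 and -0.97 (log2), rested on the single low library of each: without AT1 replicate 1 the first was -0.05, and without AT01 replicate 3 the second was -0.03. AT1 and AT01, neither of which entered the choice of Spry4, differed by -0.02 (SE 1.12, 95% interval -2.80 to 2.75, limma adjusted p = 1). That interval is wide, and it reaches nearly to the size of the AT10 difference on either side of 0.

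Such a split into separate levels was not particular to Spry4 in this table. Separate levels were counted where, with a record's log2 values in order, 1 step of 1 or more exceeded the spread both above and below it, and 2 or more libraries stood on either side. Of 11611 records 525 (4.52%) met this, and 522 of them had both levels inside at least 1 group. All FCA libraries were high and all AT10 libraries low in 12 of these records, Spry4 among them, and the opposite held in 0. For AT1 the numbers were 4 and 4, and for AT01 6 and 2. Among these 525 records no other was high and low in exactly the libraries in which Spry4 was. None of the other 8 feedback genes met the criterion. The phosphatase genes Dusp3 and Dusp7 did, with low libraries that matched those of Spry4 only in part. Dusp7 was 3.18 FPKM in AT10 replicate 2 and 3.67 in AT01 replicate 3, and 11.01 to 14.05 in the rest. Both of its low libraries had low Spry4. Dusp3 was 4.17 to 6.02 FPKM in replicate 1 of each group and 13.06 to 15.89 in the others. Of its low libraries, those of AT10 and AT1 had low Spry4 and those of FCA and AT01 did not. The standard deviation of Spry4 over the 12 libraries, 1.48 on the log2 scale, lay at the 98.7th percentile of the 11611 tested records.

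The records most like Spry4 over the 12 libraries moved far less than it did. By Pearson's r of log2(FPKM + 1) over 12 libraries the nearest was P3h1, a collagen prolyl hydroxylase, with r = 0.918, Spearman's rho 0.776 and r = 0.948 after the 2 libraries farthest from the median of Spry4 were left out. P3h1 was 62.52, 69.24 and 66.69 FPKM in FCA and 43.87, 41.26 and 51.21 in AT10. Its value was 42.14 FPKM in AT1 replicate 1 and 43.76 in AT01 replicate 3, the other libraries with low Spry4, and at least 57.03 in the rest. Zfp280b (r = 0.892), Isoc2b (0.876), the sorting nexin Snx11 (0.875) and an unnamed record, MSTRG.12034 (0.86), followed. Each of the 5 was lower in all of the libraries with low Spry4 than in any other, by gaps too small to count as separate levels. These likenesses come from the same libraries that gave the order and are a description. The libraries with low Spry4 summed to 284210 to 297548 FPKM over all records, overlapping the 292366 to 309696 FPKM of the others, and the part of this total in the split was not tested. The GC content that the study states was, in each library with low Spry4, no higher than the lowest of the others. Its part in the split was not tested either. Of the records with the nearest numbers in the assembly, Nr3c1 and Fgf1 did not share the split. Nr3c1, the glucocorticoid receptor, ran from 5.39 to 10.35 FPKM. Fgf1, a growth factor ligand, ran from 1.84 to 2.17 except for 0.43 in AT01 replicate 1. The higher of the Yipf5 records shared the split in part. It was 26.02, 27.58 and 28.2 FPKM in AT10 and 27.07 in AT01 replicate 3, against 54.08, 24.99 and 50.89 in FCA. In AT1 it was 57.17, 27.67 and 52.83 FPKM, high in the replicate with low Spry4.

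**Figure D1:**
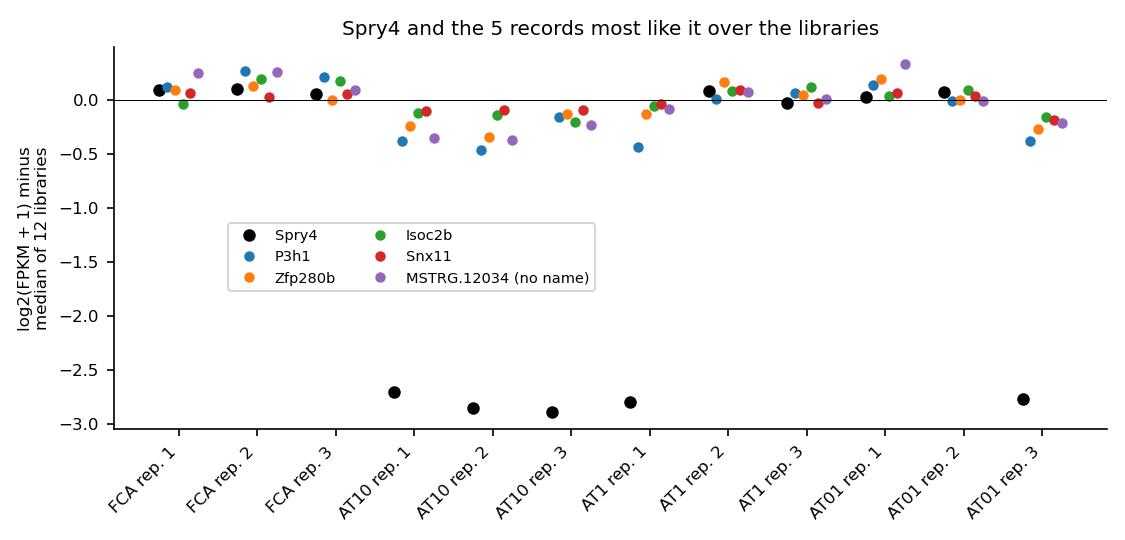
Level of Spry4 and of the 5 records most like it, as log2(FPKM + 1) minus the median of the 12 libraries (vertical axis), by library (horizontal axis), 1 point per record and library. Spry4 lies well below 0 in the 3 AT10 libraries, AT1 replicate 1 and AT01 replicate 3, where the other records fall by much less.

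Spry1 and Spry2, the other Sprouty genes of the set, did not follow Spry4. Spry1 was 3.83, 4.20 and 3.20 FPKM in FCA and 3.84, 2.89 and 3.01 in AT10, with overlapping groups and a difference of -0.16 (log2). In AT1 it was 3.34, 3.21 and 0.53 FPKM. The value of 0.53 in AT1 replicate 3 was the lowest of the 12, and it was not one of the libraries with low Spry4. The difference of AT1 from FCA, -0.64 (SE 0.43, limma adjusted p = 0.578), was -0.14 without that library. In AT01 Spry1 was 3.21, 3.03 and 3.24 FPKM.

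Spry2 was the most abundant of the 9 genes per length. It was 32.32, 30.55 and 32.07 FPKM in FCA and 29.53, 33.22 and 38.11 in AT10. The 2 groups overlapped, with a difference of 0.08 (log2). In AT1 it was 26.77, 30.13 and 25.45 FPKM and in AT01 29.19, 28.00 and 28.95 FPKM. Both groups lay below every FCA library, AT1 by -0.20 (95% interval -0.39 to -0.01, limma adjusted p = 0.441) and AT01 by -0.14 (interval -0.29 to 0.02, limma adjusted p = 0.724). The exact permutation p was 0.1 for each, the smallest that 3 libraries against 3 allow, and neither difference passed the adjusted threshold.

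Spred1 and Spred2 encode Sprouty-related proteins that recruit the RAS GTPase activator neurofibromin. Spred1 was 5.24, 6.59 and 4.69 FPKM in FCA and 8.46, 7.84 and 8.01 in AT10. All AT10 values lay above all FCA values, by 0.49 (log2), the largest difference above 0 among the 9 genes. In AT1 it was 6.89, 5.28 and 7.86 FPKM and in AT01 3.62, 4.89 and 8.28 FPKM, both overlapping FCA. The libraries with low Spry4 held 6.89 to 8.46 FPKM of Spred1. The others held 3.62 to 6.59, except for 7.86 in AT1 replicate 3, and this relation was not tested. This record held a single transcript assembled by the authors' software with no Ensembl identifier. A second Spred1 record, with an Ensembl transcript, was 2.68, 1.55 and 2.93 FPKM in FCA and 2.75, 3.09 and 2.43 in AT10, which overlapped. With both records summed the AT10 difference was 0.42.

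Spred2 stood out by single libraries in 3 groups. It was 2.05, 6.06 and 1.61 FPKM in FCA, 4.69, 1.36 and 1.21 in AT10, and 1.69, 5.23 and 1.99 in AT1. One library in each of these groups was more than 2 FPKM above the other two. In AT01 it was 1.52, 1.57 and 1.35 FPKM, below every FCA value, with a difference of -0.63 (SE 0.38, 95% interval -1.57 to 0.31, limma adjusted p = 0.787). Without FCA replicate 2 this difference was -0.19. AT10 differed from FCA by -0.31 with overlap, and by 0.13, in the other direction, without FCA replicate 2.

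Dusp4, Dusp5 and Dusp6 encode phosphatases that remove the activating phosphates of ERK, Dusp4 and Dusp5 in the nucleus and Dusp6 in the cytoplasm. Dusp6, a common readout of ERK activity, was 6.96, 5.72 and 6.65 FPKM in FCA and 6.08, 6.87 and 7.38 in AT10, a difference of 0.06 (log2) with overlap. In AT1 it was 5.81, 6.44 and 6.51 FPKM. In AT01 it was 3.07, 5.55 and 5.34 FPKM, below every FCA value, by -0.43 (SE 0.21, 95% interval -0.93 to 0.08, limma adjusted p = 0.737). Without AT01 replicate 1 the last difference was -0.20.

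Dusp5 was 3.63, 4.63 and 2.50 FPKM in FCA and 4.83, 4.24 and 4.82 in AT10, overlapping with a difference of 0.32 (log2), which was 0.14 without FCA replicate 3. It was lower in the other doses, at 2.54, 2.50 and 3.10 FPKM in AT1 and 2.49, 2.84 and 2.41 in AT01, and FCA replicate 3 fell among these values. The differences from FCA were -0.28 (limma adjusted p = 0.579) and -0.33 (0.768). Dusp4 was steadier than Dusp5 and Dusp6. It ran from 3.72 FPKM in AT01 replicate 3 to 5.84 in AT10 replicate 3, and its differences from FCA were 0.17 in AT10 (0.04 without AT10 replicate 3), 0.09 in AT1 (limma adjusted p = 0.639) and 0.08 in AT01 (0.894).

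Errfi1, also called MIG6, encodes an inhibitor that binds the kinase domain of the EGF receptor. It was 10.39, 13.00 and 8.70 FPKM in FCA and 6.67, 11.82 and 4.21 in AT10, with overlap and a difference of -0.53 (log2), which was -0.22 without AT10 replicate 3 and -0.87 without AT10 replicate 2. In AT1 it was 7.96, 6.25 and 10.93 FPKM. In AT01 it was 29.15, 28.70 and 8.49 FPKM, so that 2 of the 3 libraries stood above the other 10 and the third stood below every FCA value. The third, replicate 3, is also the AT01 library in which Spry4 was low. The AT01 difference from FCA was 0.82 (SE 0.48, 95% interval -0.37 to 2.01, limma adjusted p = 0.783, exact permutation p = 0.4), and 1.37 without replicate 3 (limma adjusted p = 0.206). AT1 lay below AT01 by -1.15 (SE 0.5, 95% interval -2.39 to 0.09, limma adjusted p = 1).

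**Figure D2:**
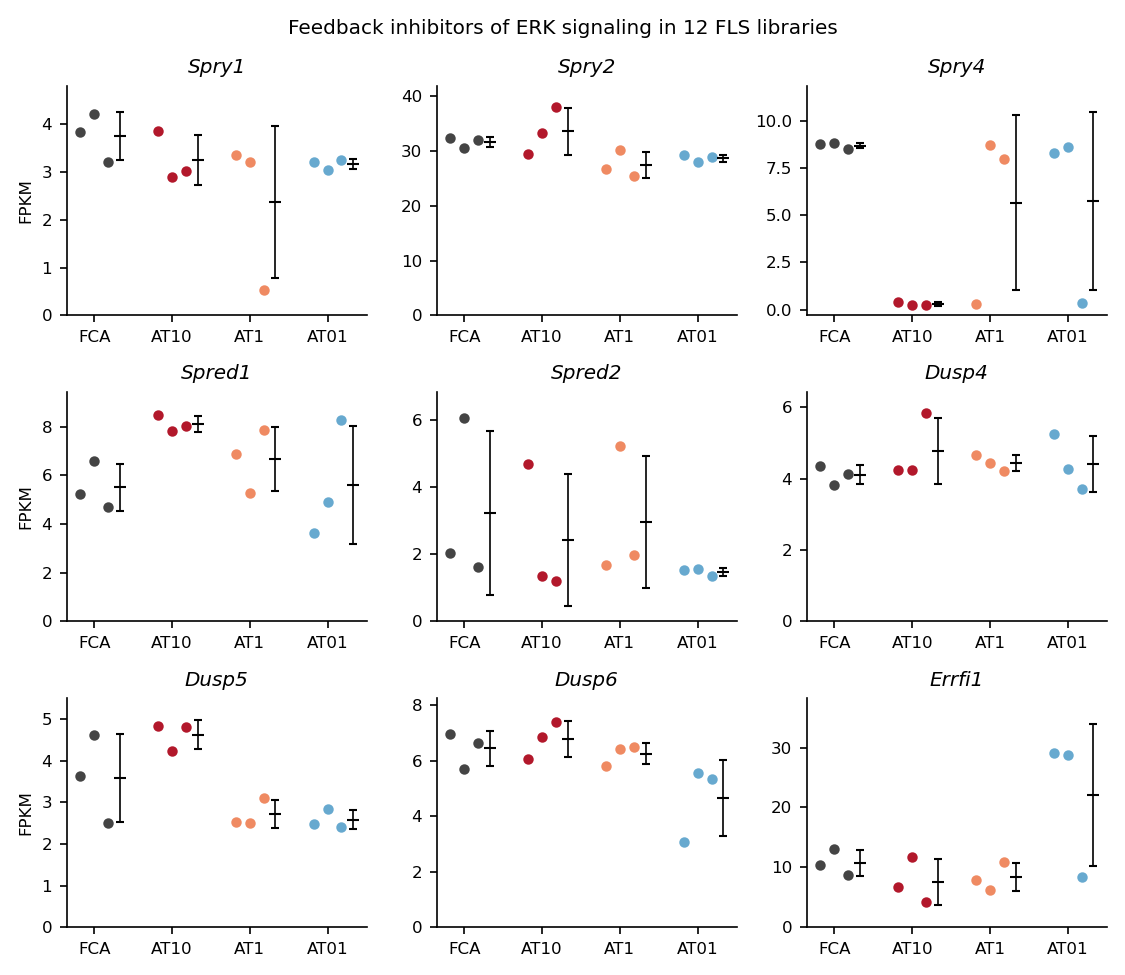
FPKM (vertical axis) of the 9 feedback genes in the 12 libraries by group (horizontal axis), with points for libraries and bars for the mean ± SD of 3 libraries. Spry4 has values of 0.40 FPKM or less in all of AT10, 1 library of AT1 and 1 of AT01, and Errfi1 is above 28 FPKM in 2 libraries of AT01.

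Spry4 was the single member with a large difference between AT10 and FCA. The other 8 differed by -0.53 to 0.49 (log2), where the 5th to 95th percentiles of all 11611 records were -0.44 and 0.48. Errfi1 and Spred1 thus lay just outside that range. The study counted genes by an unadjusted p under 0.05 together with a change of over 1 on the log2 scale in either direction, and by this criterion 1 of 9 members passed, beside 0.706% of all records. Groups did not overlap for 2 of the 9, Spry4 lower and Spred1 higher, beside 19.9% of records. The passing of Spry4 was fixed by its choice from these values, so the counts are no test and nothing is read from them. In bulk RNA a lower level in each cell and fewer cells that express a gene cannot be told apart.

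In AT1 and AT01 no member apart from Spry4, which was not tested there, passed a limma adjusted p under 0.05 against FCA, beside 0.0947% of all records in either comparison. At an unadjusted p under 0.05 the count was 1 of 8 in AT1, Spry2, beside 11% of records, and 0 of 8 in AT01, beside 6.6%. An unmoderated F test with a library term, as Ballgown uses, gave 0 and 1 at an unadjusted p under 0.05. The share of all records that this F test called at that threshold was not counted, here or below. Nothing is read from its counts. By the criterion of the study 0 of 8 passed in AT1 (0.62% of records) and 0 of 8 in AT01 (0.758%). Groups did not overlap for 1 of 8 in AT1, Spry2, beside 19.9% of records, and for 3 of 8 in AT01, Spry2, Spred2 and Dusp6, all lower, beside 8.06% of records that were lower. The median difference of the 8 was -0.13 in AT1 and -0.16 in AT01, beside medians of 0.02 and 0.00 over all records. Both comparisons share the FCA libraries, so a high or low FCA library enters each.

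AT1 against AT01 tested all 9 members, and 0 passed a limma adjusted p under 0.05, beside 0.129% of records. At an unadjusted p under 0.05 limma gave 0 of 9 (3.43% of records) and the Ballgown-style F test gave 1, Spred1. By the criterion of the study 0 of 9 passed, beside 0.568% of records. Spred2 and Dusp6 were higher in AT1 without overlap, by 0.57 and 0.39 (log2), each with an exact permutation p of 0.1, beside 4.86% of records that were higher without overlap. The median difference of the 9 was 0.01.

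**Figure D3:**
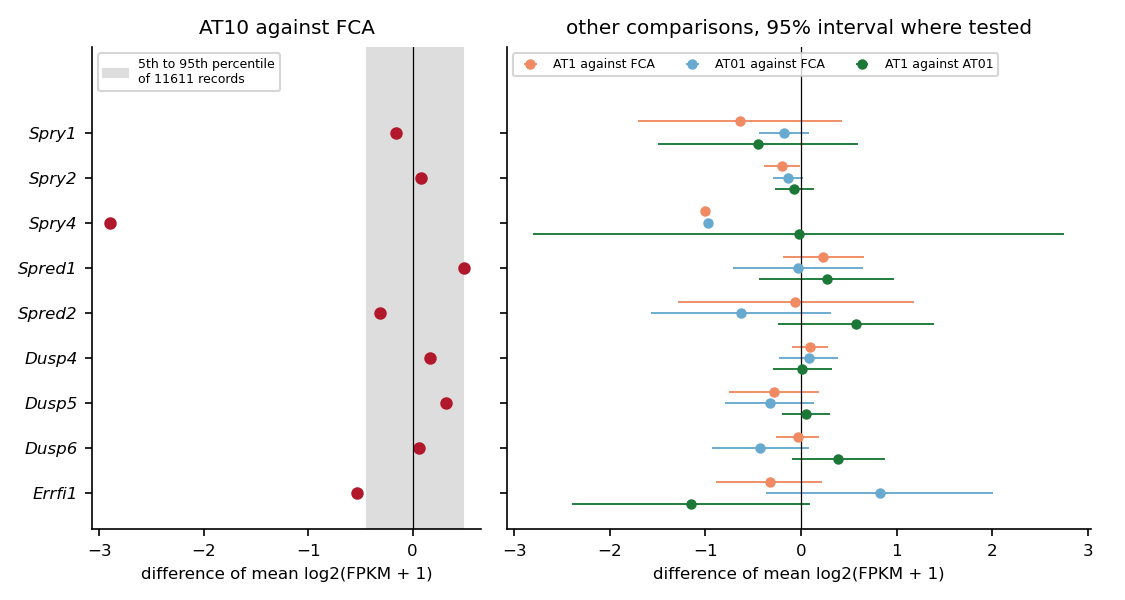
Difference of mean log2(FPKM + 1) (horizontal axis) for the 9 feedback genes (vertical axis), AT10 against FCA at left with the 5th to 95th percentile of 11611 records shaded, and the other comparisons at right with 95% intervals where tested. Spry4 at -2.90 lies far outside the shaded range. Errfi1 at -0.53 and Spred1 at 0.49 lie just outside it, and the remaining members lie inside.

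In FCA the genes ranked, from highest to lowest FPKM, Spry2 at 31.6 ± 0.958 (SD, n = 3), Errfi1 at 10.7 ± 2.17, Spry4 at 8.68 ± 0.153, Dusp6 at 6.44 ± 0.645, Spred1 at 5.51 ± 0.978, Dusp4 at 4.1 ± 0.267, Spry1 at 3.74 ± 0.506, Dusp5 at 3.59 ± 1.07 and Spred2 at 3.24 ± 2.45. Errfi1 and Spry4 overlapped in range, as did Dusp6 and Spred1, and each of the last 4 overlapped its neighbour. The range of Spred2, 1.61 to 6.06 FPKM, reached up to that of Dusp6. Spry2 lay above all of the others.

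The rest of the pathway was read from lists of other regulators, of receptors and kinases, and of genes that ERK signaling is known to raise. Of 22 other negative regulators 18 were tested. Their median difference of AT10 from FCA was -0.09, from -0.72 for Pebp1, the RAF kinase inhibitor protein, to 0.48 for Rasa1, a RAS GTPase activator. Pebp1 was 103.58, 102.41 and 93.38 FPKM in AT10 and 196.12, 117.94 and 195.17 in FCA, and Rasa1 was 13.4, 16.48 and 18.77 against 10.94, 10.29 and 12.72. Neither gene's AT10 and FCA groups overlapped, beside 19.9% of all records, and both were picked as the extremes of the list. Pebp1 was 98.34, 187.42 and 187.6 FPKM in AT1 and 190.81, 107.22 and 99.24 in AT01. Both of these groups thus held low and high values, although Pebp1 did not meet the criterion of separate levels. It was 93.38 to 103.58 FPKM in the libraries with low Spry4 and at least 107.22 in every other library. This shared order was seen in the values and was not tested. In AT1 and AT01 the medians were -0.11 and -0.11. Of the 18 genes 0 passed a limma adjusted p under 0.05, beside 0.0947% of records in either comparison. At an unadjusted p under 0.05 they numbered 0 and 1 by limma, beside 11% and 6.6% of records. The Ballgown-style F test gave 1 and 1, for which no share of records was counted.

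Of 26 receptors and cascade members 24 were found by name and 23 tested. Their median differences were -0.05, -0.01 and -0.08 in AT10, AT1 and AT01. In AT10 the lowest was Igf1r, the receptor of insulin-like growth factor, at 5.27, 8.20 and 3.92 FPKM against 9.36, 8.34 and 8.43 in FCA, a difference of -0.56 without overlap, which was -0.35 without AT10 replicate 3. Nras, a RAS GTPase, passed the criterion of the study in AT1, and it was 14.23, 13.23 and 11.88 FPKM there and 6.89, 5.43 and 5.75 in FCA. The difference was 1.01 (SE 0.11, 95% interval 0.74 to 1.28, limma adjusted p = 0.101), and it did not pass the adjusted threshold. It was 0.99, under the criterion, with median-of-ratios scaling, and between 0.95 and 1.10 when single libraries were left out. In AT01 Nras was 7.58, 13.78 and 8.24 FPKM and in AT10 8.47, 10.62 and 7.03 FPKM, again above every FCA value, with differences of 0.59 (limma adjusted p = 0.72) and, untested, 0.46.

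Most genes of the list that ERK signaling raises had means below FCA in AT1 and AT01. Of 20 such genes 16 were tested. Against FCA 14 of 16 were below 0 in AT1 with a median of -0.37, and 16 of 16 were below 0 in AT01 with a median of -0.27. In AT10 the numbers were 9 of 16 and -0.05. Groups were lower without overlap for 9 of 16 in AT1, beside 10% of all records, for 7 of 16 in AT01, beside 8.06%, and for 0 of 16 in AT10, beside 9.18%. The list was chosen with earlier results of these data known, so its counts here and below are a description. All 3 comparisons used the FCA libraries, and the list's difference between AT10 and the other doses was not tested.

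Egr1, an immediate early transcription factor, was the gene of this list that passed the adjusted threshold. It was 40.1, 43.2 and 41.89 FPKM in FCA and 46.7, 46.98 and 41.54 in AT10. In AT1 it was 24.33, 25.49 and 22.42 FPKM and in AT01 22.32, 28.21 and 23.36 FPKM. AT1 lay below FCA by -0.77 (SE 0.07, 95% interval -0.94 to -0.60, limma adjusted p = 0.0488, exact permutation p = 0.1), one of 7 records (0.0603%) called lower. The call was at the threshold, and it was lost when any 1 library was left out, with adjusted p from 0.0502 to 0.14. AT01 lay below by -0.74 (SE 0.1, limma adjusted p = 0.178). At least 41.54 FPKM in AT10 and at most 28.21 in AT1 and AT01 left the 10 µM libraries apart from the other treated ones.

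Fos, Egr2, Ier2, Phlda1, Myc and Ccnd1 were also lower without overlap in both AT1 and AT01, and with Egr1 they made up the 7 in AT01. Fos was 8.74, 14.97 and 8.45 FPKM in FCA, 4.54, 5.91 and 5.32 in AT1, and 5.41, 6.28 and 6.27 in AT01, and in AT10 it was 8.63, 6.65 and 6.15. Fos had the lowest AT10 value of the list, -0.49 (log2), and Etv5, an ETS factor, the highest, 0.32. Fos was at -0.25 without FCA replicate 2, and Etv5 ran from 0.13 to 0.70 as single libraries were left out. Ccnd1, cyclin D1, was below FCA by -0.07 in AT01 and by -0.74 in AT1, where 30.5 FPKM in replicate 3 stood against 133.43 and 132.45 in the others. Except for Egr1 in AT1, no gene of the list passed a limma adjusted p under 0.05. At an unadjusted p under 0.05 there were 6 of 16 by limma in each comparison, beside 11% and 6.6% of records. The Ballgown-style F test gave 5 and 6, for which no share of records was counted.

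**Figure D4:**
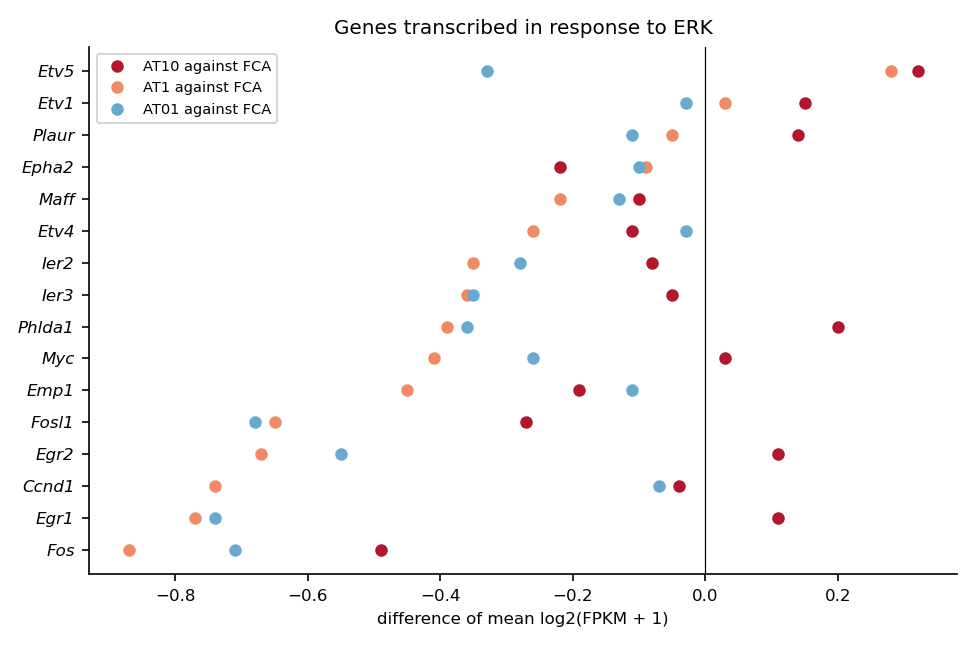
Difference from FCA in mean log2(FPKM + 1) (horizontal axis) of 16 genes transcribed in response to ERK (vertical axis), with a point for each of AT10, AT1 and AT01. The AT1 points run from -0.87 for Fos to 0.28 for Etv5 and all AT01 points lie below 0, while 7 of the 16 AT10 points lie above 0.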

How the data were processed

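Poly(A) RNA of 12 libraries was sequenced in 4 groups of 3. The authors trimmed reads (cutadapt), aligned them (HISAT2) to a rat genome whose build is not given in the sources used here, and assembled and quantified transcripts (StringTie, Ballgown). The deposited FPKM were used without further scaling. Values were taken as log2(FPKM + 1), and 11611 records whose mean reached 1 FPKM were compared 2 groups at a time with limma 3.58.1 in R 4.3.3 (trend of variance, two-sided, Benjamini-Hochberg over all records, threshold 0.05), with exact permutation tests beside named genes. The rule named all 9 members, list genes that passed the adjusted p or the criterion of the study without AT10, each list's highest and lowest AT10 difference, and the 5 records most like Spry4. One gene that this rule names is not reported here. Others (Egr2, Ier2, Phlda1, Myc, Ccnd1, Nr3c1, Fgf1, Yipf5 and markers) were named after their values were seen. Members and lists were chosen with earlier results of these data known. Pdgfra, Shc1, Col1a2, Ptprc, Cd163 and Pecam1 were not found by name and were not analysed here. On simulated data with 200 of 11611 records changed by 2 (log2) in AT1 against FCA, limma called 85% of them and 13 unchanged records, and a Ballgown-style F test with a library term called 0 by adjusted p. Figures and descriptions used Python 3.11.15, pandas 2.3.3, NumPy 2.4.6 and Matplotlib 3.10.9.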

Additional observations from a re-analysis of the deposited data

How the results depend on the processing

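Each result was recomputed under another pseudocount, filters, a fit over all 12 libraries, median-of-ratios scaling, records summed by name, a Ballgown-style F test, the replicate block, and with each library left out. No member passed a limma adjusted p under 0.05 in AT1 against FCA, AT01 against FCA or AT1 against AT01 under any of these. The Spry4 difference of AT10 from FCA was -2.90, and -4.49 with a pseudocount of 0.1, and it lay between -2.96 and -2.87 with single libraries left out. With a mean of at least 10 FPKM Spry4 was filtered out, which left 0 members past the criterion of the study in AT10 in place of 1. Errfi1 made 1 member pass that criterion in AT1 against AT01 in the fit over all 12 libraries (0 otherwise), and 0 to 1 members passed with single libraries left out both there and in AT01 against FCA, the 1 in each case without AT01 replicate 3.

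Directions of some member differences changed, none of them called. For AT10 against FCA, leaving out single libraries gave -0.75 to 0.13 for Spred2, -0.01 to 0.13 for Dusp6 and -0.01 to 0.16 for Spry2. For AT1 against FCA it gave -0.11 to 0.02 for Dusp6 and -0.43 to 0.39 for Spred2. For AT01 against FCA it gave -0.31 to 0.19 for Spred1 and -0.03 to 0.17 for Dusp4. For AT1 against AT01 it gave -0.96 to 0.92 for Spry4, -0.08 to 0.12 for Dusp4, -0.71 to 0.04 for Spry1 and -0.02 to 0.10 for Dusp5, and Dusp4 was -0.07 under the Ballgown-style F test. The cause was not tested.

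The call of Egr1 in AT1 was lost with a pseudocount of 0.1 (limma adjusted p = 0.0535), without a filter (0.0814) and under the replicate block (0.351), as well as under the Ballgown-style F test (adjusted p = 0.196). In AT01 it was gained in the fit over all 12 libraries (0.0427). Over all records the adjusted calls of AT10, AT1 and AT01 against FCA and of AT1 against AT01 were 20, 11, 11 and 15. They were 2, 3, 5 and 2 in the fit over all 12 libraries, 1, 1, 1 and 2 under the F test, 7, 6, 7 and 7 at a mean of at least 10 FPKM, and 19 to 35, 9 to 33, 13 to 30 and 11 to 25 with single libraries left out. Calls by the criterion of the study were 82, 72, 88 and 66, and 147, 90, 121 and 89 with a pseudocount of 0.1, 19, 34, 40 and 26 at a mean of at least 10 FPKM, and 46, 37, 59 and 61 under the F test.

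Replicate numbers were shared by the groups, but over the tested records as a whole libraries with the same number did not deviate together. The correlation of their deviations ran from -0.105 to 0.0942 over 18 pairs, and none was over 0.1. Of the 12 libraries 3 correlated best with their own number. Single records could still follow the number, and Dusp3 was low in replicate 1 of each group. With the replicate block the adjusted calls over all records were 1, 0, 2 and 2, and 0 members were called in AT1 and AT01 against FCA and between them. Without read counts, the precision of low values such as 0.23 FPKM is unknown.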
